A study of Schizosaccharomyces pombe with 4 samples.

Results

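The regions described are 3 windows of the Schizosaccharomyces pombe genome in which the telomere protein Taz1 was recovered beside genes of the cAMP and Ras pathways or beside their neighbours. They hold gpa2 with avl9 on chromosome I (tile positions 2517000 to 2527800, 37 probes), cyr1 with rcr1 on chromosome II (2822100 to 2836800, 50 probes) and gap1 with sds23 on chromosome II (944100 to 955800, 40 probes). These 6 genes are among 5107 protein-coding genes with probes. The windows were chosen from the same enrichment values that are given below, so the heights and losses are a description and were not tested.

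The measurements come from chromatin immunoprecipitation hybridised to a custom tiling array of 60-mer probes placed every 300 bp on alternating strands, with 4 arrays and 1 array per group. All cells grew in logarithmic phase in YEA rich medium at 30 °C and were fixed in 3% paraformaldehyde, and their chromatin was sonicated to 500 to 1000 bp. Taz1_wt is the precipitate of wild-type cells with an antibody raised against recombinant Taz1, and Taz1_L593F is the precipitate with the same antibody from cells of genotype taz1l593F (mut5). Taz1_GFP is a GFP antibody precipitate from taz1GFP cells, and Rif1_Myc is a Myc antibody precipitate from Rif1Myc cells. Each precipitate was labelled with Cy5 and its own whole-cell extract (WCE) DNA with Cy3, without a dye swap. No array of untagged cells with a tag antibody and none of cells lacking Taz1 was analysed here, and the 2 maps of the unmutated protein differ in both antibody and strain. Values are log2(IP/WCE), centred on each array's median probe; a value of 1 is a 2-fold enrichment over that median. With 1 array per group there is no replicate error, and an SD given here is the spread over neighbouring tiles of 1 array, which share fragments and are not replicates.

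Taz1 is the fission yeast relative of the mammalian telomere repeat proteins TRF1 and TRF2 and binds double-stranded telomeric DNA through a Myb-type domain. It is also known from sites inside the chromosome arms, where it has been linked to late replication origins and, with the conserved protein Rif1, to their timing. In the cAMP pathway of S. pombe, glucose acts through the receptor Git3 and the G protein alpha subunit Gpa2 on the adenylate cyclase Cyr1, and the resulting cAMP releases the kinase Pka1, which holds back mating and gluconeogenesis. Ras1 drives mating and cell shape, and Gap1 is the GTPase-activating protein that returns Ras1 to its inactive form. Sds23 is an inhibitor of type 2A-related protein phosphatases. Avl9 is known from Saccharomyces cerevisiae for a role in late secretory transport, and Rcr1 is named after an S. cerevisiae gene for resistance to Congo red. Each of the 3 windows had a Taz1 peak in the long intergenic interval between 2 divergently transcribed genes, and over the tiles of the 3 peaks the means on Taz1_L593F were 0.03, 0.06 and 0.00.

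The reference sequence under the peaks is shown first because all 3 intervals hold the same short repeat within 450 bp of the summit tile. The file headers name no genome build, so the tiles were placed on the RefSeq assembly ASM294v3 by matching the WCE signal to base composition, with 126 of 126 windows of 100 kb within 300 bp of the offset of their chromosome segment. The offset was −725 bp at gpa2-avl9, −1640 bp at cyr1-rcr1 and −790 bp at gap1-sds23, where the nearest window differed by 290 bp. Below are 100 bases from each interval, on the minus strand and read 5′ to 3′, at chrI:2521167-2521266, chrII:2828945-2829044 and chrII:949317-949416 of ASM294v3, with every GGTTA in capitals.
gpa2-avl9: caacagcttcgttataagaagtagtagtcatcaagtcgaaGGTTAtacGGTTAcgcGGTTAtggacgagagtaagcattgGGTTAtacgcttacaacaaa
cyr1-rcr1: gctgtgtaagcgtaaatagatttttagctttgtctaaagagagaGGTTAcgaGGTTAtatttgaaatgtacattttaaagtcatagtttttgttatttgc
gap1-sds23: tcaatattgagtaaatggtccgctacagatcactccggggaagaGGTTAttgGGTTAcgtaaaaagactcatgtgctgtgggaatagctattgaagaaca

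GGTTA is part of the S. pombe telomere repeat, and each stretch holds GGTTANNNGGTTA, a pair of GGTTA with 3 bases between them. The interval between gpa2 and avl9 has 2 overlapping matches of this pair, and each of the other intervals has 1. The nearest match lay 437 bp from the Taz1_wt summit tile at gpa2-avl9, 434 bp at cyr1-rcr1 and 56 bp at gap1-sds23. Searched on both strands, the pair occurs 21 times in the 3 chromosomes, in 0.0453% of 41905 windows of 300 bases and in 2 of 5112 promoters (250 bases before to 50 after the gene start, 0.0391%), none of them a promoter of the 6 genes. Among 108 divergent intervals of 2 to 4 kb, 4 held the pair (3.70%), and these 3 intervals are among the 4. The longer repeat GGTTACA had 0 matches in the 3 intervals and occurred in 21 of the 108 (19.4%). Its first 6 letters, GGTTAC, had 2 matches between gpa2 and avl9 and 1 in each of the others, in part within the pairs above, and occurred in 52 of the 108 (48.1%). The pair was noticed after the sequences had been read, and a match is a description of letters, not of a bound site.

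Away from the windows the pair stood at 12 internal places, meaning outside the outer 50 kb of each chromosome and outside the centromeres. The highest running median over 3 tiles within 450 bp reached 2-fold at 4 of these 12 on Taz1_wt and at 6 on Taz1_GFP, with medians of 0.38 and 0.75. On Taz1_L593F and on Rif1_Myc it reached 2-fold at 0 of the 12. For scale, 0.225% of internal probes on Taz1_wt and 0.826% on Taz1_GFP had a running median of 1 or more, beside 1.95% on Rif1_Myc and 0 of 40107 probes on Taz1_L593F. These shares count probes 1 by 1, while each place took the highest of several tiles, so they understate the share to be set beside the places. Of 10 internal Taz1_wt enriched runs outside the windows, 4 had the pair within 300 bp, and the lower run over SPBC19C7.04C described below had none.

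gpa2, the G protein alpha subunit gene, lies to the left of its peak and is transcribed away from it, while avl9 lies to the right and is transcribed away on the other strand. The Taz1_wt summit tile, at 2521500, was 1536 bp upstream of the gpa2 start and 725 bp upstream of the avl9 start. The running median over 3 tiles at that tile was 2.18 on Taz1_wt (4.52-fold), 2.795 on Taz1_GFP (6.94-fold), 0.45 on Rif1_Myc (1.37-fold) and 0.39 on Taz1_L593F (1.31-fold). The first 2 arrays stand far above the other two, and all 4 values are above the array medians. In linear units the Cy5 and Cy3 signals of the summit tile were 3799 and 823 on Taz1_wt, 5290 and 718 on Taz1_GFP, 533 and 380 on Rif1_Myc and 772 and 592.7 on Taz1_L593F.

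The gpa2-avl9 peak had a steep left face and a long right shoulder. On Taz1_wt, single tiles went from 1.04 at 2521200 to 2.24 at 2521500, stayed at 2.18 and 2.13 on the next 2 tiles, and fell through 1.67 at 2522400 to 1.25 at 2522700. Taz1_GFP had the same steps, from 1.18 to 2.93, then 2.795, 2.64, 2.07 and 1.76. The rise thus fell between the same neighbouring tiles on both maps, on the side that faces gpa2. Over the 6 tiles inside avl9, single values lay between 0.83 and 1.67 on Taz1_wt and between 1.43 and 2.07 on Taz1_GFP. The shoulder ended near the avl9 end: Taz1_GFP was 1.61 at 2524200, close to the avl9 end and within the convergent gene ddr48, and 0.83 at 2524500.

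The gpa2 gene itself was not covered. Its 10 tiles had a mean of 0.39 ± 0.18 on Taz1_wt (SD over tiles) and 0.24 ± 0.13 on Taz1_GFP, and the highest single value was 0.71 on Taz1_wt and 0.49 on Taz1_GFP. The 6 tiles of avl9 had means of 1.16 ± 0.29 and 1.64 ± 0.25. In the 5 tiles from 1200 to 2400 bp off the summit, the avl9 side was higher than the gpa2 side by 0.74 on Taz1_wt and by 1.19 on Taz1_GFP, against 0.06 on Rif1_Myc and 0.18 on Taz1_L593F. Rif1_Myc had its highest running median of this window, 0.60, at 2519700, inside gpa2 near its start, where Taz1_wt was 0.29.

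An enriched run is a stretch of tiles whose running median over 3 tiles is at least 1, with runs less than 1 kb apart joined. The run beside avl9 spanned 2700 bp on Taz1_wt (2521200 to 2523600, 9 tiles) and 3300 bp on Taz1_GFP (2521200 to 2524200, 11 tiles). Over the 9 tiles the mean was 1.49 ± 0.57 on Taz1_wt, 1.995 ± 0.65 on Taz1_GFP, 0.49 ± 0.13 on Rif1_Myc and 0.03 ± 0.29 on Taz1_L593F. The loss, as Taz1_L593F minus Taz1_wt per tile, was −1.46 ± 0.32, with 9 of 9 tiles lower. Lower tiles were not particular to the run. The 10 tiles of gpa2, outside it, had means of 0.39 on Taz1_wt and −0.08 on Taz1_L593F. Over all 37 tiles of the window the medians were 0.49 and −0.14, so the loss includes a difference that extends beyond the peak. With normexp background correction on the median signals the Taz1_wt summit was 3.22 and the loss −2.24, so the height of this peak depends on how background is removed.

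**Figure D1:**
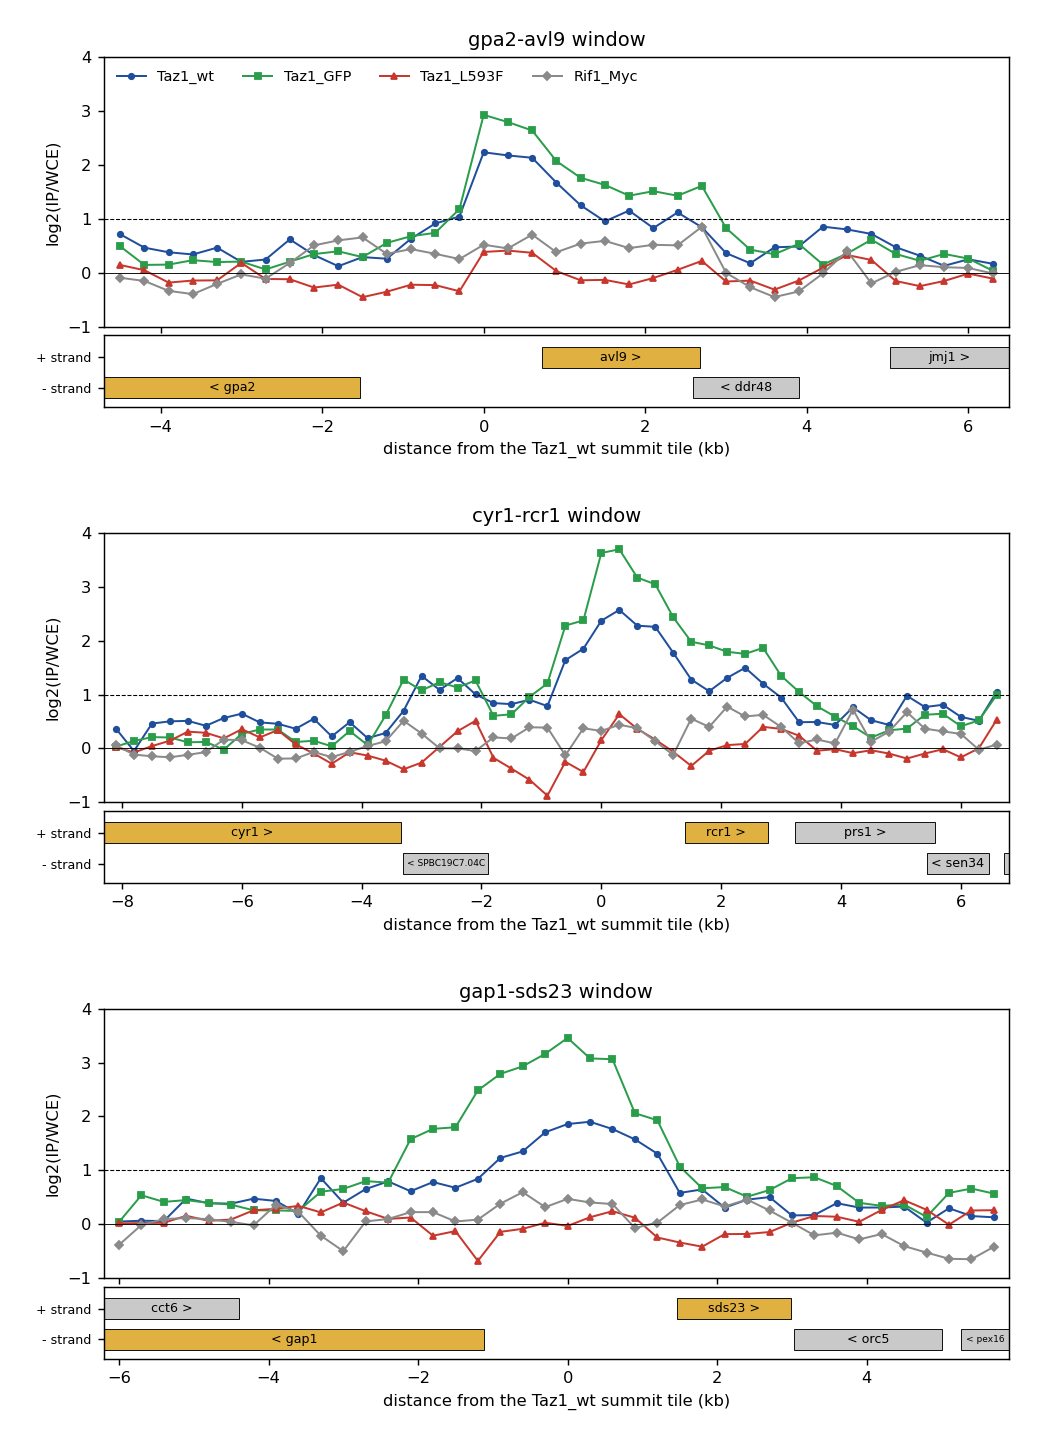
Log2(IP/WCE) of single tiles on the 4 arrays against distance from the Taz1_wt summit tile in kb, with the protein-coding genes of ASM294v3 below (member genes in yellow, others in grey, strand at the left); the dashed line marks 2-fold. Taz1_wt and Taz1_GFP peak between divergent genes in all 3 windows, at 2.24 and 2.93 (gpa2-avl9), 2.57 and 3.70 (cyr1-rcr1) and 1.90 and 3.46 (gap1-sds23), while the highest single tile on Taz1_L593F is 0.64.

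cyr1, the adenylate cyclase gene, is in the window of the rcr1 peak but is not the gene beside it. The summit tile, at 2830200, lay 3340 bp beyond the 3′ end of cyr1 and 8758 bp from its start. Between cyr1 and the peak stands SPBC19C7.04C, an uncharacterised gene on the opposite strand whose start was 1888 bp from the summit, and on the far side rcr1 started 1396 bp from it. The 3283 bp interval that holds the summit is thus the one between SPBC19C7.04C and rcr1. The running median at the summit tile was 2.37 on Taz1_wt (5.17-fold), 3.63 on Taz1_GFP (12.4-fold), 0.37 on Rif1_Myc (1.30-fold) and 0.16 on Taz1_L593F (1.11-fold). The 2 maps of unmutated Taz1 shared the summit tile, and the other two arrays were close to their medians there. The Cy3 signal of this tile was low on all arrays, 192 on Taz1_wt, 133 on Taz1_GFP, 83.5 on Rif1_Myc and 195 on Taz1_L593F, against array medians of 1074 to 1174, and its 300 bases are 24.0% GC. Both channels of every tile in the 3 windows were well above background on all 4 arrays, and none was saturated.

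The rcr1 peak rose in steps from the left. Single tiles on Taz1_wt were 0.79 at 2829300, 1.64 at 2829600, 1.85 at 2829900, 2.37 at 2830200 and 2.57 at 2830500, and then fell to 2.28, 2.26 and 1.78 by 2831400. On Taz1_GFP the same tiles gave 1.21, 2.28, 2.38, 3.63, 3.70, 3.17, 3.05 and 2.43. Both maps had their highest single tile at 2830500, the tile next to the summit of the running median. Over the 5 tiles inside rcr1 the profile was level, between 1.06 and 1.498 on Taz1_wt and between 1.76 and 1.98 on Taz1_GFP, and it fell past the rcr1 end to 0.49 and 1.05 at 2833500. The 8 tiles of prs1, the prolyl-tRNA ligase gene that follows, had means of 0.61 ± 0.20 and 0.55 ± 0.28.

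The run beside rcr1 spanned 3600 bp on Taz1_wt (2829600 to 2832900, 12 tiles) and 4500 bp on Taz1_GFP (2829300 to 2833500, 15 tiles). Its 12 tiles had a mean of 1.76 ± 0.51 on Taz1_wt, 2.496 ± 0.71 on Taz1_GFP, 0.36 ± 0.28 on Rif1_Myc and 0.06 ± 0.31 on Taz1_L593F. The loss was −1.70 ± 0.46, with 12 of 12 tiles lower. On Taz1_L593F the tiles just left of the summit were below the median, down to −0.88 at 2829300, and 1 tile reached 0.64 at 2830500, the same tile that was highest on Taz1_wt and Taz1_GFP.

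A lower second run lay between the rcr1 peak and cyr1. It covered SPBC19C7.04C at 2827200 to 2828100 on Taz1_wt, with single tiles of 1.35, 1.09, 1.31 and 1.0045. The same tiles were 1.08, 1.23, 1.13 and 1.26 on Taz1_GFP, −0.26, 0.03, 0.32 and 0.51 on Taz1_L593F, and 0.28, 0.00, 0.00 and −0.05 on Rif1_Myc. This run had nearly the same mean on the 2 Taz1 maps, 1.19 ± 0.17 on Taz1_wt and 1.18 ± 0.09 on Taz1_GFP, while the rcr1 run was 0.74 higher on Taz1_GFP. The mean on Taz1_L593F was 0.15 ± 0.34, a loss of −1.04 ± 0.46 over 4 tiles, 4 of them lower. With normexp correction or a 1.5-fold threshold the 2 runs were joined, into 6000 bp and 6600 bp on Taz1_wt.

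The cyr1 gene stayed low up to its last tiles. Over its 18 tiles the mean was 0.39 ± 0.17 on Taz1_wt, 0.17 ± 0.16 on Taz1_GFP, −0.05 ± 0.16 on Rif1_Myc and 0.04 ± 0.21 on Taz1_L593F. The highest single tile in the gene was 0.65 on Taz1_wt and 0.61 on Taz1_GFP. cyr1 reached 1.09 and 1.23 on these arrays only when 500 bp on both sides were counted, through the tiles of SPBC19C7.04C at its 3′ end.

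gap1, the Ras1 GTPase-activating protein gene, and sds23 shared the third peak. The Taz1_wt summit tile, at 950100, was 1123 bp upstream of the gap1 start and 1467 bp upstream of the sds23 start. The Taz1_GFP summit was 1 tile further toward gap1, 823 bp and 1767 bp from the 2 starts. Because the local offset of the tiles differed by 290 bp from that of the segment, and the highest single tile of Taz1_wt lay nearer to sds23 (1167 bp) than to gap1 (1423 bp), which of the 2 genes is closer was not settled. The running median at the Taz1_wt summit tile was 1.86 on Taz1_wt (3.63-fold), 3.16 on Taz1_GFP (8.95-fold), 0.40 on Rif1_Myc (1.32-fold) and 0.03 on Taz1_L593F (1.02-fold). The Cy5 and Cy3 signals of this tile were 1920 and 540 on Taz1_wt and 3780 and 356 on Taz1_GFP, against 513 and 526 on Taz1_L593F. This was the lowest of the 3 peaks on Taz1_wt and the second highest on Taz1_GFP, but the order turned with normexp correction, which gave 3.22 at gpa2-avl9, 2.64 at cyr1-rcr1 and 2.76 here on Taz1_wt, and 3.79, 3.80 and 3.95 on Taz1_GFP.

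The 2 Taz1 maps had different outlines here. On Taz1_wt the tiles rose evenly from 0.84 at 948900 through 1.23, 1.35 and 1.71 to 1.86 and 1.90, and came down through 1.77, 1.57 and 1.31 to 0.58 at 951600. On Taz1_GFP the tile at 948000 was already 1.58, followed by 1.77, 1.80, 2.48, 2.79, 2.93, 3.16 and 3.46, and the right side fell from 3.06 at 950700 to 2.06, 1.93 and 1.07. The extra width was on the gap1 side, where the tiles from 948000 to 948900 were 0.61, 0.78, 0.68 and 0.84 on Taz1_wt. From 1200 to 2400 bp off the summit, the gap1 side had a mean of 1.68 on Taz1_GFP and 0.74 on Taz1_wt, and the sds23 side had 0.97 and 0.66. Over the 19 tiles of gap1 the mean was 0.47 ± 0.27 on Taz1_wt and 0.69 ± 0.72 on Taz1_GFP, where the highest tile of the gene was 2.48, at 948900 in its 5′ end. The 5 tiles of sds23 had means of 0.50 ± 0.13 and 0.71 ± 0.21, so neither gene was enriched 2-fold on average.

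The run between gap1 and sds23 spanned 2400 bp on Taz1_wt (949200 to 951300, 8 tiles) and 3900 bp on Taz1_GFP (948000 to 951600, 13 tiles). Its 8 tiles had a mean of 1.59 ± 0.26 on Taz1_wt, 2.81 ± 0.54 on Taz1_GFP, 0.31 ± 0.22 on Rif1_Myc and 0.00 ± 0.16 on Taz1_L593F. The loss was −1.59 ± 0.18, with 8 of 8 tiles lower. Taz1_GFP exceeded Taz1_wt by 1.22 here, by 0.74 at rcr1 and by 0.50 at avl9. Over 10 internal Taz1_wt runs outside the windows this excess had a median of 0.76 and a range of −0.39 to 2.04, so all 3 are within the range of other runs.

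**Figure D2:**
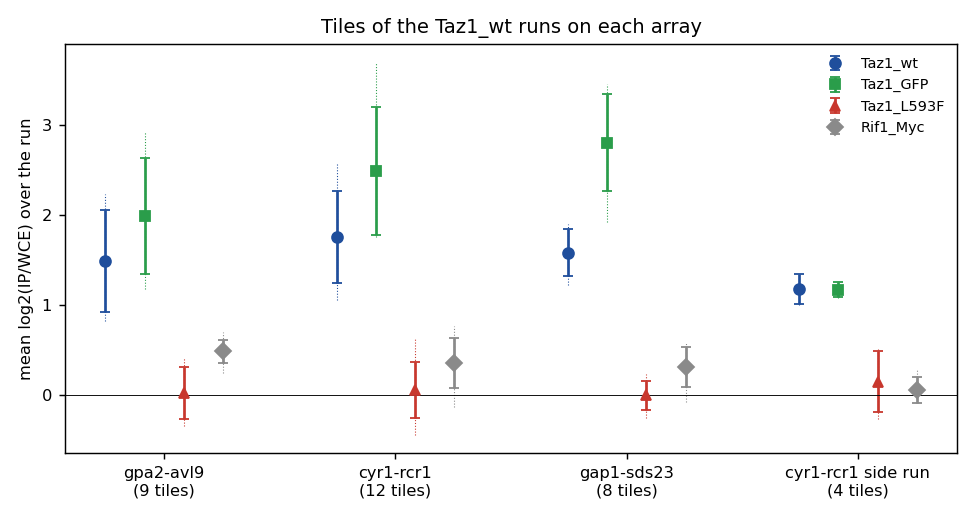
Mean log2(IP/WCE) over the tiles of each Taz1_wt run on the 4 arrays; solid bars are the SD over tiles, dotted lines the lowest and highest tile, and the number of tiles is under each name. Means on Taz1_L593F lie between 0.00 and 0.15, and those on Taz1_wt between 1.19 and 1.76.

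Losses of this size were usual for Taz1_wt runs. The 10 internal Taz1_wt runs outside the windows had a median loss of −1.43, from −1.63 to −0.72, and all 10 were lower on Taz1_L593F. The rcr1 loss of −1.70 was beyond that range and the losses at gap1-sds23 and gpa2-avl9 were inside it. With normexp correction the cyr1-rcr1 loss was the smallest of the 3, at −1.63 against −2.24 at gpa2-avl9 and −2.15 at gap1-sds23. The cyr1-rcr1 run was then 6000 bp and took in the lower run over SPBC19C7.04C, so the tiles compared changed along with the correction. Over 40037 internal probes the difference had a median of −0.01 and a robust SD of 0.28. Choosing runs on Taz1_wt favours a loss. With the runs taken from Taz1_GFP, an array outside this difference, the losses were −1.35 at gpa2-avl9, −1.52 at cyr1-rcr1 and −1.34 at gap1-sds23. The 59 internal Taz1_GFP runs elsewhere had a median of −0.44 and a range of −1.47 to 0.40. The windows were chosen on all 4 arrays, the loss included, so taking runs from Taz1_GFP does not remove that choice. With 10 internal Taz1_wt runs elsewhere, the 59 are also not matched to these loci in height on Taz1_wt. The Taz1_L593F array also had the narrowest spread of all 4, a robust SD of 0.20 against 0.24 on Taz1_wt, 0.28 on Taz1_GFP and 0.40 on Rif1_Myc. With all arrays scaled to the same spread the losses were −1.68, −1.89 and −1.86, in the same order of loci. The part of this narrower spread in the losses was not tested further.

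Small rises on Taz1_L593F at the summits were set against the rest of the array. The mean of the 3 tiles at the Taz1_wt summit minus the mean of both flanks from 1500 to 3000 bp was 0.28 at gpa2-avl9, 0.07 at cyr1-rcr1 and 0.18 at gap1-sds23 on Taz1_L593F. Of 40108 internal probes, 6.09%, 34.4% and 16.0% had a contrast at least as high, so many tiles of that array had contrasts of this size. The same contrast was 1.33, 1.12 and 1.23 on Taz1_wt, where at most 0.0923% of probes were as high. The windows and summit tiles were chosen for their height on Taz1_wt, so that small share follows from the choice. It is not a like comparison for the shares on Taz1_L593F. The Taz1_L593F profile over the 37 tiles of the gpa2-avl9 window had a Pearson r of 0.61 with that of Taz1_wt. It was 0.19 over 50 tiles at cyr1-rcr1 and −0.20 over 40 tiles at gap1-sds23. Taz1_GFP had an r with Taz1_wt of 0.92, 0.94 and 0.90. Neighbouring tiles share fragments and base composition, and these r values are descriptions.

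**Figure D3:**
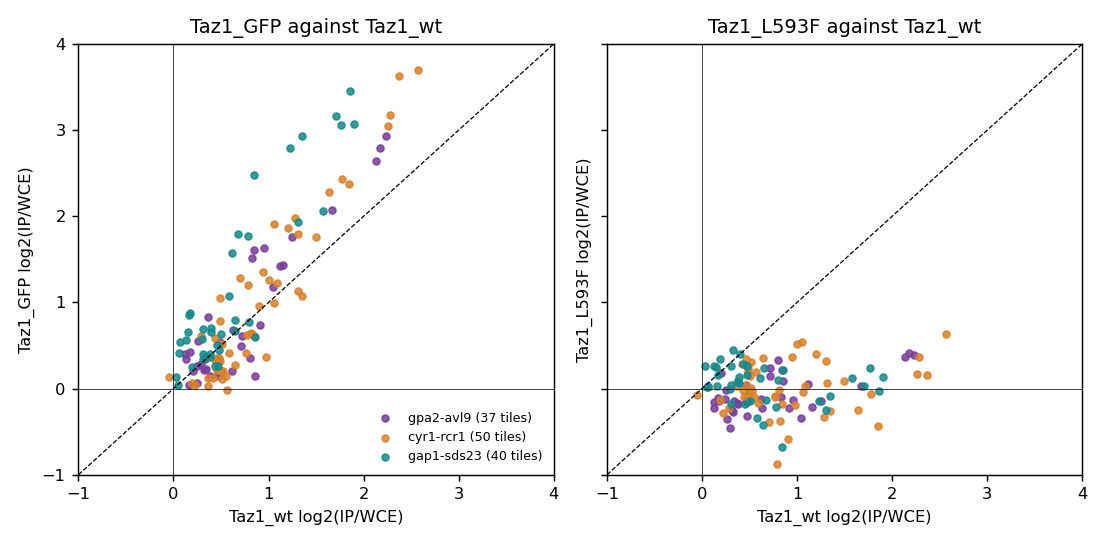
Log2(IP/WCE) of each tile of the 3 windows on Taz1_GFP (left) and Taz1_L593F (right) against Taz1_wt; colours mark the windows and the dashed line is equality. Tiles of the gap1-sds23 window reach 3.46 on Taz1_GFP at Taz1_wt values of at most 1.90, and the highest tile on Taz1_L593F is 0.64.

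Rif1_Myc had no enriched run in the 3 windows. Its highest running medians were 0.60 in gpa2, 0.62 at 2832600 in rcr1 and 0.47 at 949800 between gap1 and sds23. Over the Taz1_wt runs its means were 0.49 ± 0.13, 0.36 ± 0.28 and 0.31 ± 0.22, above the array median but within or near 1 robust SD of the array (0.40). The 10 Taz1_wt runs elsewhere had a median Rif1_Myc mean of 0.23 and a range of −0.29 to 1.31. Over the 3 summits the contrast with the flanks was −0.10, 0.04 and 0.17, and 32.0% to 60.6% of internal probes were as high. At gpa2-avl9 Rif1_Myc was raised over 5100 bp, from 2519400 to 2524200, which reaches into both flanks. The low contrast there thus does not mean a flat profile.

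The 3 peaks shared further features. The windows were named by gene pairs and by the gene beside each peak, so a place between 2 genes is not independent of the choice. All 3 summits were in intergenic intervals between divergent genes, and these intervals were long: 2260 bp at gpa2-avl9, 3283 bp at SPBC19C7.04C-rcr1 and 2589 bp at gap1-sds23, against a median of 790.5 bp over 1256 divergent intervals. Only 8.28%, 3.34% and 5.65% of divergent intervals were at least as long. These shares count each interval once, while any position on a chromosome falls more readily in a long interval than in a short one. Annotated non-coding RNAs overlapped each summit, SPNCRNA.831 and SPNCRNA.3136 at gpa2-avl9, SPNCRNA.1553 at rcr1, and SPNCRNA.1399 and SPNCRNA.4942 at gap1-sds23. The 3 intervals held 2, 7 and 4 annotated non-coding genes. The share of other divergent intervals or tiles with such an overlap was not counted, so it is not known whether this is unusual. The intervals were 34.7%, 32.9% and 31.6% GC. Over chromosome tiles the log2 ratio had an r with GC content of −0.13 on Taz1_wt and −0.19 on Taz1_GFP. With this dependence removed the summits were 2.14, 2.25 and 1.86 on Taz1_wt and 2.70, 3.34 and 3.06 on Taz1_GFP. The dependence was stronger for the remaining arrays, with an r of −0.22 for Taz1_L593F and, in the opposite direction, 0.28 for Rif1_Myc. Its removal raised the highest running medians of Rif1_Myc in the windows from 0.60, 0.62 and 0.47 to 0.70, 0.75 and 0.53, still below 2-fold. Those of Taz1_L593F went from 0.39, 0.53 and 0.34 to 0.35, 0.48 and 0.39.

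The remaining genes of the windows stayed below 2-fold on average on every array. Next to gpa2 and avl9, ddr48 had a mean of 0.46 ± 0.28 on Taz1_wt and 0.80 ± 0.58 on Taz1_GFP, and the histone demethylase gene jmj1 had 0.32 ± 0.17 and 0.32 ± 0.21. Beyond rcr1 and prs1, the tRNA-splicing endonuclease gene sen34 had 0.64 ± 0.15 and 0.53 ± 0.12, and the tRNA methyltransferase gene ppm2 0.37 ± 0.11 and 0.63 ± 0.28. Next to gap1 and sds23, the chaperonin gene cct6 had 0.22 ± 0.19 and 0.29 ± 0.26. The origin recognition complex gene orc5 had 0.26 ± 0.13 and 0.47 ± 0.27, and the peroxisome import gene pex16 had 0.11 ± 0.14 and 0.50 ± 0.12. SPBC19C7.04C, with 1.09 ± 0.26 and 1.20 ± 0.09 over 5 tiles, was the exception.

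Within the gene and 500 bp on both sides, 5 of the 6 genes reached 2-fold on Taz1_wt, where 37 of 5107 genes did (0.724%), and 5 on Taz1_GFP, where 119 did (2.33%). The gene that did not was gpa2 on both arrays, at 0.53 and 0.55. On Taz1_L593F 0 of the 6 reached 2-fold (2 of 5107 genes, 0.0392%), and on Rif1_Myc 0 of the 6 (197 genes, 3.86%). These counts rest on the values that chose the windows. From the processed signals, the order of the highest running medians on Taz1_wt was rcr1 (2.26), avl9 (2.18), sds23 (1.31), gap1 (1.23), cyr1 (1.09) and gpa2 (0.53), and on Taz1_GFP it was rcr1 (3.05), avl9 (2.795), gap1 (2.79), sds23 (1.93), cyr1 (1.23) and gpa2 (0.55). Neighbours in this order that differ by less than 0.24 on Taz1_wt, its robust SD over probes, are rcr1 and avl9, sds23 and gap1, and gap1 and cyr1. With tiles inside the gene alone, gap1, cyr1 and sds23 stayed below 2-fold on Taz1_wt, with highest single tiles of 0.85, 0.65 and 0.65.

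The rest of both pathways stayed below 2-fold on Taz1_wt, which only 37 of 5107 genes reached (0.724%). Of 15 genes in the cAMP list, 14 had a match in the annotation, with git10 without one, and of the 12 that are not members 0 reached 2-fold on Taz1_wt. Their median was 0.30, against 0.18 over all genes. The highest was git11, the G protein gamma subunit gene that acts with gpa2, with 0.71 on Taz1_wt, 0.71 on Taz1_GFP, 0.01 on Rif1_Myc and 0.24 on Taz1_L593F. The lowest was fbp1, the fructose-1,6-bisphosphatase gene that glucose represses through this pathway, with −0.00095, 0.28, 0.65 and 0.03 in the same order. On Taz1_GFP 1 of the 12 reached 2-fold, where 2.33% of all genes did. It was ste11, which encodes the transcription factor for mating and meiosis, at 1.25. Its other values were 0.70 on Taz1_wt, 0.83 on Rif1_Myc and 0.39 on Taz1_L593F.

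In the Ras list 14 genes other than gap1 were measured, and 0 reached 2-fold on Taz1_wt or on Taz1_GFP, where 0.724% and 2.33% of all genes did. Their median was 0.11 on Taz1_wt and 0.14 on Taz1_GFP. The highest on Taz1_wt was byr1, the MAP kinase kinase gene of the mating pathway, with 0.39, 0.12, 0.23 and 0.41 on Taz1_wt, Taz1_GFP, Taz1_L593F and Rif1_Myc. The lowest was ste6, the gene of a Ras1 guanine nucleotide exchange factor, with −0.08, −0.22, 0.22 and −0.17. ras1 itself had 0.11, 0.48, 0.09 and 0.54. On Rif1_Myc 1 of the 14 reached 2-fold, where 3.86% of all genes did. It was ste4, whose product links Ras1 to the kinase Byr2, at 1.74, with 0.11 on Taz1_wt.

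The phosphatase genes whose products Sds23 is known to inhibit stayed below 2-fold as well, as most genes did. Of all genes, 0.724% reached 2-fold on Taz1_wt and 2.33% on Taz1_GFP, and the all-gene medians were 0.18 and 0.22. On Taz1_wt the type 2A catalytic subunit genes ppa1 and ppa2 had 0.19 and 0.32, the related catalytic subunit gene ppe1 had 0.66, and ekc1, for a regulatory subunit of Ppe1, had 0.21. On Taz1_GFP the values were 0.12, 0.47, 0.59 and 0.16. ppe1 thus passed 1.5-fold on both arrays, as 4.56% of all genes did on Taz1_wt and 8.498% on Taz1_GFP. The genes of the precipitated proteins were below 2-fold on all 4 arrays, with −0.06 to 0.36 for taz1 and 0.09 to 0.27 for rif1. At most 3.86% of all genes, on Rif1_Myc, reached 2-fold on any array.

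**Figure D4:**
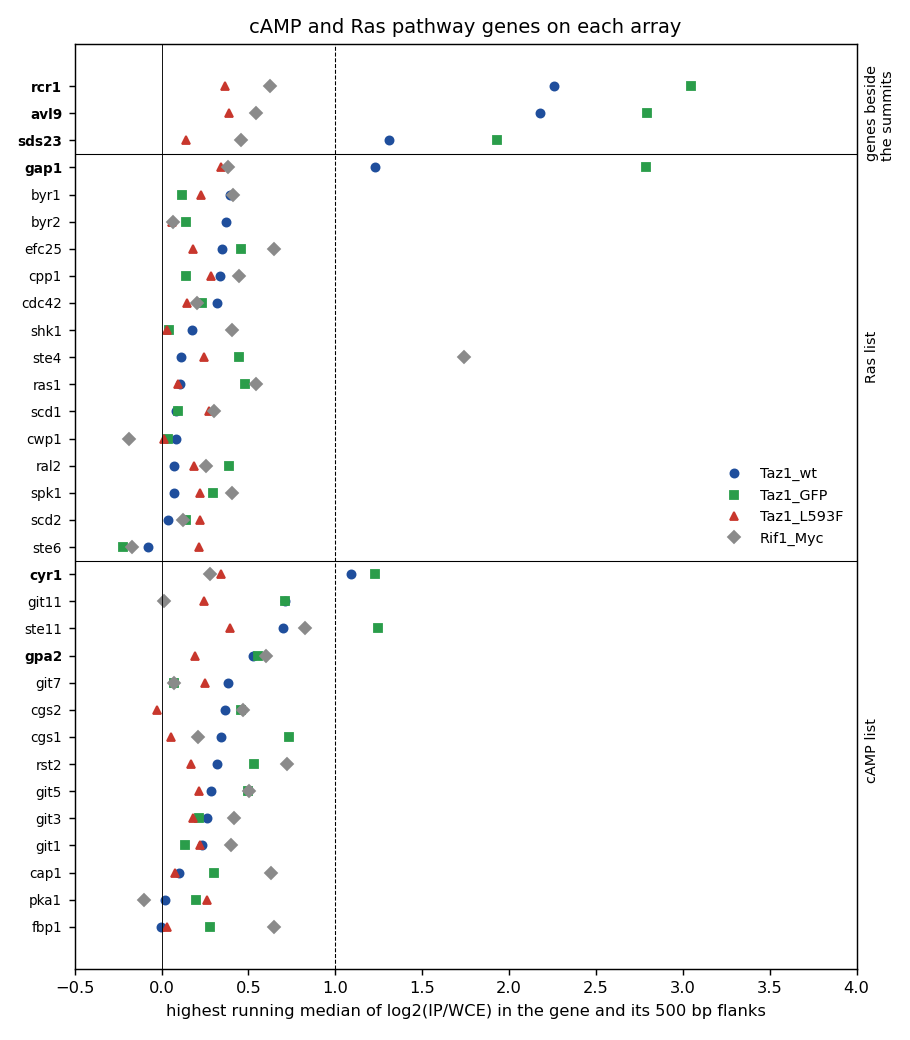
Highest running median of log2(IP/WCE) within each gene and 500 bp on both sides, on the 4 arrays, for the cAMP list, the Ras list and the 3 neighbour genes; member genes are in bold and the dashed line marks 2-fold. On Taz1_wt the members other than gpa2 lie at 1.09 to 2.26 and the other listed genes at 0.71 or lower.

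The internal Taz1_wt runs whose 4 means were nearest to those of the 3 loci were found by Euclidean distance over the 4 arrays. The centre of the 3 loci was 1.61 on Taz1_wt, 2.43 on Taz1_GFP, 0.39 on Rif1_Myc and 0.03 on Taz1_L593F, and the locus farthest from it was 0.47 away. The nearest run, at a distance of 0.31, covered ivn1, a gene for a regulator of aminophospholipid translocation, with 1.60, 2.43, 0.13 and 0.20 in the same order over 13 tiles. The next, at 0.40, lay between the palmitoyltransferase gene erf2 and SPBC3H7.08C, with 1.81, 2.498, 0.08 and 0.18 over 14 tiles. The third, at 0.49, lay between the copper-sensing transcription factor gene cuf1 and rod1, with 1.47, 2.54, 0.25 and 0.47 over 5 tiles. The runs at ivn1 and at erf2 thus lay nearer to the centre than the farthest of the 3 loci did.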

How the data were processed

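Arrays were scanned and extracted with Agilent Feature Extraction 11.5.1.1, per the file headers. The deposited files give background-subtracted, dye-normalised processed intensity for Cy5 and Cy3 and a log10 ratio of the 2; the series matrix holds the authors' log2 ratio, uncentred, equal to the scanner ratio within 1e-06 at 41551 of 41551 probes. No header or label names a genome build.

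Control spots and feature outliers (2 to 74 spots an array) were left out, log2(Cy5/Cy3) of the processed intensity was centred on each array's median, and a running median of 3 tiles was taken. No loess was applied. Runs, gene values (gene and 500 bp), motif matches and registration were computed in Python 3.11.15 with pandas 2.3.3; limma 3.58.1 in R 4.3.3 gave normexp and loess alternatives. Run calling was tested on simulated data. The members, windows and gene lists were chosen with earlier results of these data known. Genes were named by a fixed rule: the members, their neighbours in the windows, listed genes that reached 2-fold or were highest or lowest on Taz1_wt, the phosphatase genes, the 3 nearest runs, taz1 and rif1. ras1 was added after its values were seen. With 1 array per group no test was made, and precision is limited by that number.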

Additional observations from a re-analysis of the deposited data

How the results depend on the processing

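Of 286 values under the alternatives run, 242 stayed close to the value given, 44 moved and 0 reversed. Most of them are widths, distances, counts or window maxima, which could not change sign, so the 0 says little. The 29 values from the series matrix repeat the scanner ratios and could not move. The windows held 0 outlier spots, so keeping such spots (29 values) left little to move. The causes of the moves were not tested, except that a threshold changes widths by its own construction. With normexp background correction, the summits were 3.22 (gpa2-avl9), 2.64 (cyr1-rcr1) and 2.76 (gap1-sds23) on Taz1_wt and 3.79 and 3.95 (gpa2-avl9, gap1-sds23) on Taz1_GFP, the losses were −2.24 (gpa2-avl9) and −2.15 (gap1-sds23), the widths were 6000 bp on Taz1_wt and 6900 bp on Taz1_GFP at cyr1-rcr1 and 6600 bp on Taz1_GFP at gap1-sds23, and cAMP genes at 2-fold numbered 2 on Taz1_wt and 1 on Rif1_Myc, where 2.59% and 4.45% of all genes reached it. The order of the 3 summits and of the 3 losses changed with this correction, but the losses were taken over runs that had changed too. Scaling the arrays to 1 spread gave Taz1_wt summits of 2.56, 2.79 and 2.19, a cyr1-rcr1 window maximum of 0.74 on Taz1_L593F and a gap1-sds23 loss of −1.86. Removing the GC dependence gave 3.34 at cyr1-rcr1 on Taz1_GFP and 1 cAMP gene there, where 1.92% of all genes reached 2-fold. A running median of 5 gave 3.17 on Taz1_GFP and 0.29 on Taz1_L593F at cyr1-rcr1. Single probes gave 3.46 at gap1-sds23 on Taz1_GFP and 2 Ras genes on that array (3.54% of all genes), and put the Taz1_wt summit 1167 bp from sds23. At a 1.5-fold threshold the widths were 6600 and 7800 bp at cyr1-rcr1 and 4800 and 7200 bp at gap1-sds23 (Taz1_wt, Taz1_GFP), the gap1-sds23 loss was −1.16, cAMP genes numbered 3 on Taz1_wt, 4 on Taz1_GFP and 5 on Rif1_Myc, and Ras genes 2 on Rif1_Myc, with 4.56%, 8.498% and 18.2% of all genes at that threshold on these arrays. At 3-fold the widths were 1200 and 1800 bp at gpa2-avl9 (Taz1_wt, Taz1_GFP), 2100 bp at cyr1-rcr1 and 1200 bp at gap1-sds23 on Taz1_wt. At this threshold 0 cAMP genes on both Taz1 arrays and 0 Ras genes on Taz1_wt remained, beside 0.255% of all genes on Taz1_wt and 0.685% on Taz1_GFP. With tiles in the gene alone, 0 genes of either list reached 2-fold on Taz1_wt (0.451% of all genes), and 1 cAMP gene did on Taz1_GFP (1.57%). The gap1-sds23 run of Taz1_GFP gave a loss of −1.34. No paired analysis was possible because each group has 1 array and the labels give no replicate numbers.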
